A study of Mus musculus with 4 samples.

Results

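Glycolysis carries glucose to pyruvate, and lactate dehydrogenase takes pyruvate on to lactate. The genes described here are 10 of that pathway: the hexokinases Hk1 and Hk2, the phosphofructokinases Pfkl, Pfkm and Pfkp, and Aldoa, Gapdh, Pgk1, Pkm and Ldha. They were chosen by symbol from the 49997 genes of the count tables, and all 10 were found and passed the filter on low counts. RNA came from wild-type iMOP cells, immortalized mouse otic progenitors that can form several inner ear cell types. Proliferating cultures (2 libraries) grew in DMEM/F12 with B27, carbenicillin and basic FGF at 20 ng/ml. The neurons derived from them (2 libraries) grew in Neurobasal with N21, L-glutamine and 1 µM of the CDK2 inhibitor K03861, CDK2 being a kinase of the cell cycle. All 4 libraries come from this single line, the medium changed together with the cell state, and the age of the neuron cultures is not given in the sources used here.

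Glycolysis yields ATP without oxygen and supplies carbon for nucleotides, lipids and amino acids, and dividing progenitors are known for heavy use of it. Several steps have isozymes from separate genes. Hk1 is the widespread hexokinase of brain, while Hk2 is typical of muscle and of many fast-growing cells, and both can sit on the outer mitochondrial membrane. Phosphofructokinase works as a tetramer that can mix the liver (Pfkl), muscle (Pfkm) and platelet (Pfkp) subunits, whose regulation differs. The line studied here is known to have been immortalized with Myc, a factor known to drive many glycolysis genes.

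The total count per library ran from 7446361 to 14484011, of which 53.3% to 76.1% fell on the 18S ribosomal RNA row Rn18s-rs5. Without it 2595578 to 3850766 counts remained, and the 10 glycolysis genes together held 3093 and 2884 counts in proliferating replicates 1 and 2 and 2754 and 3263 in neuron replicates 1 and 2. The titles of both replicate 2 libraries name a second set, and the share of 18S was higher in both of them (75.0% and 76.1%) than in the replicate 1 libraries (53.3% and 59.4%). Neuron markers (13 genes) summed to 163 and 350 CPM (counts scaled to the TMM library size) before against 203 and 368 CPM after differentiation. This sum was higher in replicate 2 than in replicate 1 of either group. Tubb3 held much of that difference, at 19.1 and 194 CPM before against 28.8 and 105 CPM after differentiation. Other members disagreed between proliferating replicates 1 and 2: Elavl4 was at 7.56 and 12.2 CPM, but Dcx at 22.9 and 15.4 CPM. Of the 11 neuron markers tested, 2 were higher in neurons within both replicate pairs and 1 was lower, while 8 went opposite ways. Their median log2 change was -0.23 in the first pair and 0.61 in the second. Map2 was higher in both, at 93.9 and 92.3 CPM before against 121 and 141 CPM after differentiation. Proliferation markers (9 genes) summed to 354 and 160 CPM before against 434 and 270 CPM after differentiation. Within both replicate pairs 6 of them were higher in neurons and 1 was lower, against 28.8% and 25.5% of all tested genes. Top2a, a large part of the sum, was at 167 and 21.9 CPM before against 219 and 131 CPM after differentiation. Ccnd1 was the lower one, at 8.13 and 62.8 CPM before against 5.13 and 4.79 CPM after differentiation. The 10 glial markers summed to 160 and 112 CPM before against 68.6 and 18.2 CPM after differentiation. The 10 otic progenitor markers summed to 113 and 150 CPM before against 102 and 48.6 CPM after differentiation. Pax2 and Pax8 of that list were at 0 in all 4 libraries, while Sox2 had 216 to 402 counts, Jag1 145 to 348 and Sox9 41 to 496. The 6 fibroblast markers summed to 7.14 to 17.2 CPM over the libraries. Col1a2 and Dcn were at 0 in all 4, and Pdgfra, with 66 to 200 counts, held most of that sum. The 7 endothelial and blood markers summed to 0.714 to 1.60 CPM, with Hba-a1, Hbb-bs and Ptprc at 0 in all 4 and Cd68 at 6 to 11 counts. The part of these differences in the results was not tested. In bulk RNA, fewer cells of a type and less RNA per cell cannot be told apart.

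The comparison of neurons with proliferating cells asks whether the glycolysis programme and its isozymes change with differentiation. Of the 10 genes, Hk1, Pfkl and Gapdh were lower in both neuron libraries than in both proliferating libraries, and Pfkp was higher in both. The other 6 genes had overlapping groups. None of the 10 passed the test across all genes: edgeR's quasi-likelihood test with Benjamini-Hochberg adjustment called 0 of 10 at an adjusted p-value under 0.05, against 0% of the 12783 genes tested. Without adjustment 0 of the 10 lay under 0.05 as well, against 3.43% of all genes (2.51% lower and 0.915% higher). DESeq2 called 0 of the 10 as well, and few genes in all: 12 higher and 46 lower of 25859. Groups that do not overlap are common in these data: 14.5% of all tested genes lay below in both neuron libraries and 12.9% lay above, and the 3 below and 1 above rest on few genes. The median log2 fold change of the 10 genes was -0.15 (9 negative and 1 positive), beside 0.02 over all tested genes. That median was 0.0053 with a GC correction, where 4 of the 9 turned positive, 0.045 without proliferating replicate 2, -0.50 without proliferating replicate 1 and -0.55 without neuron replicate 2, so its direction is not settled.

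**Figure D1:**
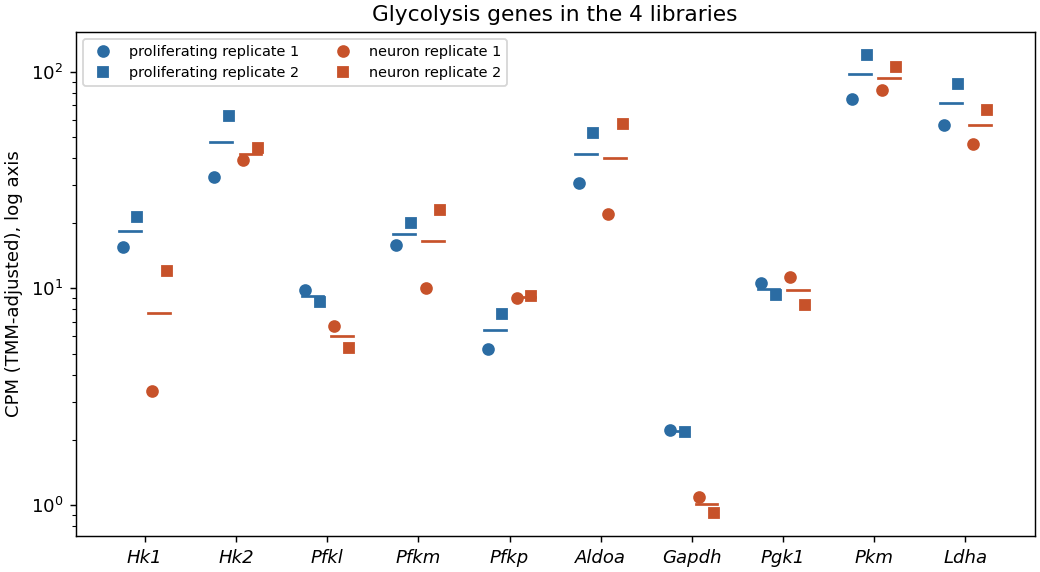
Level of each of the 10 glycolysis genes in every library, in CPM after TMM scaling on a log axis, with blue points for proliferating cells, orange points for neurons, circles for replicate 1, squares for replicate 2 and bars for the group means. Hk1, Pfkl and Gapdh have both neuron points below both proliferating points, Pfkp has them above, and the other 6 genes overlap.

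The hexokinases commit glucose to the cell by phosphorylation. Hk1 was counted 188 and 157 times in proliferating libraries 1 and 2 against 40 and 118 times in neuron libraries 1 and 2. Its level was 15.4 and 21.3 CPM before against 3.36 and 12.03 CPM after differentiation. Both neuron libraries lay below both proliferating libraries, but neuron replicate 1 lay much further below. The means were 18.3 ± 4.11 CPM and 7.70 ± 6.13 CPM (SD, n = 2 each), and the log2 fold change was -1.25 (SE 0.67, edgeR adjusted p-value 0.9998). Within the replicate 1 pair the neuron level was 0.218 of the proliferating level (95% counting interval 0.151 to 0.308), and within the replicate 2 pair it was 0.566 (0.442 to 0.723). These intervals compare single libraries and cover counting error only. Leaving out neuron replicate 1 gave a log2 fold change of -0.65, and leaving out neuron replicate 2 gave -2.44. With the replicate number as a block it was -1.49 with SE 0.52 and an unadjusted p-value of 0.0158 in edgeR (adjusted p-value 0.58). In that fit Hk1 was the only gene of the 10 at an unadjusted p-value under 0.05, against 6.18% of all tested genes (3.48% lower and 2.7% higher). With the block 0 of the 10 were called, against 0.0235% of all genes, each of these lower.

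Hk2 did not follow Hk1. It was counted 396 and 461 times in the proliferating libraries against 465 and 436 times in the neuron libraries, or 32.5 and 62.4 CPM against 39.1 and 44.4 CPM. Both neuron values lay between the proliferating values. The log2 fold change was -0.18 with SE 0.49 (edgeR adjusted p-value 0.9998), and the pairs went opposite ways, with log2 changes of 0.26 (first pair) and -0.49 (second pair). Without proliferating replicate 2 the log2 fold change was 0.38 and without proliferating replicate 1 it was -0.61, so that its sign rests on which proliferating library is used.

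The balance of the hexokinases can be read inside a library, where the scaling between libraries has no part. Hk2 took 67.8% of the hexokinase counts in the first proliferating library (95% Wilson interval 63.9% to 71.5%) and 74.6% in the second (71.0% to 77.9%). In neurons its share was 92.1% in replicate 1 (89.4% to 94.1%) and 78.7% in replicate 2 (75.1% to 81.9%). Hk2 was therefore the more counted hexokinase in every library, and its share was higher in both neuron libraries. The intervals of the replicate 2 libraries overlap, while those of the replicate 1 libraries are far apart. The count ratio of Hk2 to Hk1 was 5.52-fold higher in neurons in the replicate 1 pair (counting interval 3.82 to 7.96) and 1.26-fold higher in the replicate 2 pair (0.958 to 1.65). On the log2 scale the ratio per kilobase averaged 0.95 ± 0.34 in proliferating cells and 2.34 ± 1.16 in neurons (SD, n = 2 each), a difference of 1.39. It came to 0.57 when neuron replicate 1 was left out and to 2.21 when neuron replicate 2 was. With 2 libraries against 2, an exact two-sided permutation test of a single value cannot give a p-value under 0.333, and no test was run on these ratios.

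Which hexokinase has the higher level depends on the length by which counts are divided. Per kilobase of the longest annotated transcript (4278 bases for Hk1, 5513 for Hk2), Hk2 stood 1.63-fold and 2.27-fold above Hk1 in proliferating replicates 1 and 2, and 8.92-fold and 2.86-fold above it in neuron replicates 1 and 2. Per kilobase of the principal transcript (3851 bases for Hk1) the ratios were 1.47, 2.05, 8.03 and 2.57 in the same order. In the authors' RPKM values they were 5.76, 8.02, 31.8 and 10.1, with an implied length of 34928 bases for Hk1. Only with the median length of the protein-coding transcripts, which is 581 bases for Hk1 because many of its annotated transcripts are short, did Hk1 stand above Hk2 in 3 of 4 libraries (ratios 0.438, 0.610, 2.39 and 0.767). The difference between groups was 1.39 or 1.40 under each length.

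The sequences before the starts of Hk1 and Hk2 are shown because these isozymes differed in their values. They are the 250 bases upstream of an annotated start site, from RefSeq (GRCm38.p6, the assembly also called mm10), on the strand of the gene, with the letters ACGTG or their reverse complement in capitals. ACGTG is a form of the core of the element bound by the hypoxia factor HIF1 and part of the MYC site CACGTG. Other forms of that core were not searched. Hk1 lies on the minus strand at chr10:62268855-62379908 (GENCODE M21), and the window before its outermost start is chr10:62379909-62380158. Hk2 lies on the minus strand at chr6:82725025-82774454, with the window chr6:82774455-82774704.
Hk1 upstream: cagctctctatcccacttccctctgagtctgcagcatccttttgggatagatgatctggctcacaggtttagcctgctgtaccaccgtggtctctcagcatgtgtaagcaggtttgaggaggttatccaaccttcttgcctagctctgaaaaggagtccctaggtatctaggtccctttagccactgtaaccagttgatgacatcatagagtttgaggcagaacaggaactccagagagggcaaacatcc
Hk2 upstream: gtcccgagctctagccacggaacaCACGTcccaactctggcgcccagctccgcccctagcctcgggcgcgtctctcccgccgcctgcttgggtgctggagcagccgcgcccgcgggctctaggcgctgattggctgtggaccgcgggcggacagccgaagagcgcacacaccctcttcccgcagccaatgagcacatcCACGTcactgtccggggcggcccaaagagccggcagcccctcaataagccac
The Hk2 window holds ACGTG at 2 places and has a GC content of 69.6%, while the Hk1 window holds none and has a GC content of 49.6%. Hk1 has a further annotated start at position 62340421, whose window has a GC content of 62.8% and also no ACGTG. Which start is used was not measured in these counts.

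**Figure D2:**
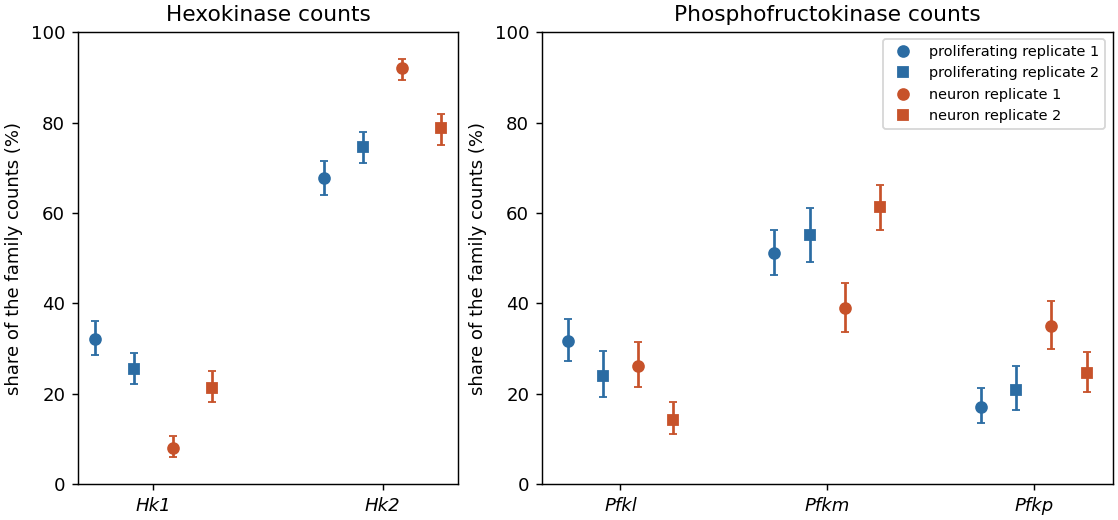
Share of each isozyme in the counts of its family, in percent, for the hexokinases (left) and the phosphofructokinases (right). Points are single libraries (blue proliferating, orange neurons, circles replicate 1, squares replicate 2) and bars are 95% Wilson intervals. The Hk2 share is 92.1% in neuron replicate 1 and 67.8% to 78.7% in the other libraries, and the Pfkp share is above 24% in both neuron libraries and below 21% in both proliferating libraries.

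Phosphofructokinase catalyses the committed step of glycolysis and is its main point of control. The liver subunit gene Pfkl was counted 119 and 64 times in proliferating libraries 1 and 2 against 80 and 52 times in neuron libraries 1 and 2. Its level was 9.78 and 8.66 CPM before against 6.73 and 5.30 CPM after differentiation. The groups did not overlap, and the libraries of a group lay close together. The means were 9.22 ± 0.788 and 6.02 ± 1.01 CPM (SD, n = 2 each), and the log2 fold change was -0.62 with SE 0.47 (edgeR adjusted p-value 0.9998). The change within the pairs was similar, at -0.53 in replicate 1 and -0.69 in replicate 2.

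The platelet subunit gene Pfkp, which is also the form best known from brain, went the other way. It was counted 64 and 56 times in the proliferating libraries against 107 and 90 times in the neuron libraries, or 5.26 and 7.58 CPM against 9.0 and 9.17 CPM. Both neuron libraries lay above both proliferating libraries. The means were 6.42 ± 1.64 and 9.09 ± 0.123 CPM (SD, n = 2 each), with a log2 fold change of 0.51 (SE 0.48, edgeR adjusted p-value 0.9998). The neuron level was 1.71 of the proliferating level in the replicate 1 pair (95% counting interval 1.24 to 2.37) and 1.21 in the replicate 2 pair (0.858 to 1.72). The log2 fold change was 0.23 without proliferating replicate 1 and 0.05 with limma on log2(RPKM + 1), a scale that understates low genes. In GENCODE, exons of Pitrm1 on the opposite strand cover 18.05% of the bases of the principal Pfkp transcript. The use of strand in counting is not given in the sources used here, so Pfkp counts may hold reads of Pitrm1. Pitrm1 itself was counted 717 and 363 times in the proliferating libraries against 672 and 494 times in the neuron libraries, with a log2 fold change of -0.02.

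The muscle subunit gene Pfkm had the most counts of the 3 subunits in every library. It was counted 192 and 148 times in the proliferating libraries against 119 and 225 times in the neuron libraries, or 15.8 and 20.0 CPM against 10.01 and 22.9 CPM. The neuron libraries lay on either side of the proliferating libraries, with neuron replicate 1 lowest and neuron replicate 2 highest. The log2 fold change was -0.12 with SE 0.55 (edgeR adjusted p-value 0.9998), and became 0.32 if neuron replicate 1 was left out but -0.84 if neuron replicate 2 was. Which subunit has the highest level depends on the length used. In the authors' RPKM the ratio of Pfkm to Pfkl was 0.717 and 1.03 in proliferating replicates 1 and 2 and 0.661 and 1.92 in neuron replicates 1 and 2. With the median length of protein-coding transcripts, Pfkm stood below Pfkp in neuron replicate 1 (ratio 0.657).

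Within the phosphofructokinase counts, Pfkp held 17.1% and 20.9% in proliferating replicates 1 and 2 (95% Wilson intervals 13.6% to 21.2% and 16.5% to 26.2%). In neurons its share was 35.0% and 24.5% (29.8% to 40.5% and 20.4% to 29.2%). Pfkl held 31.7% and 23.9% in proliferating cells and 26.1% and 14.2% in neurons, and Pfkm held 51.2% and 55.2% in proliferating cells and 38.9% and 61.3% in neurons. The Pfkl share overlapped between the groups and was lower in replicate 2 of both. The ratio of Pfkp to Pfkl moved the same way in both pairs: it was 2.49-fold higher in neurons in the replicate 1 pair (counting interval 1.63 to 3.78) and 1.98-fold higher in the replicate 2 pair (1.21 to 3.25). Its log2 value per kilobase averaged -1.76 ± 0.49 in proliferating cells and -0.62 ± 0.26 in neurons (SD, n = 2 each), a difference of 1.14 that lay between 0.79 and 1.49 when any library was left out. The ratio of Pfkm to Pfkl differed by 0.39 between the groups, less than its pooled SD between replicates of 0.81, and by -0.38 without neuron replicate 2. Pfkp stayed below Pfkl in all 4 libraries per kilobase of the longest transcript (ratios 0.232, 0.376, 0.574 and 0.741) but stood above it in both neuron libraries per kilobase of the principal transcript (0.486, 0.788, 1.20 and 1.55), since the longest Pfkp transcript has 8681 bases and the principal one 4145.

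The upstream sequences of Pfkl and Pfkp are shown as the pair with opposite directions. Both genes are on the minus strand, Pfkl at chr10:77986947-78010083 and Pfkp at chr13:6579768-6648777 (GENCODE M21). Of each 250-base window only the longest stretch free of annotated exons is shown, again from RefSeq GRCm38.p6. It is chr10:78009808-78010004 (197 bases) for Pfkl and chr13:6648778-6649021 (244 bases) for Pfkp. The Pfkl stretch lies before the start site at 78009807 but inside the annotated gene, and the 53 window bases beyond it are annotated exon. The Pfkp stretch lies outside the annotated gene.
Pfkl upstream: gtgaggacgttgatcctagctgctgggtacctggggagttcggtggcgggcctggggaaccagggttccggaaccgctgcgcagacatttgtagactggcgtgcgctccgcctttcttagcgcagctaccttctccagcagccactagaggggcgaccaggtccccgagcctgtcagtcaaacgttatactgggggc
Pfkp upstream: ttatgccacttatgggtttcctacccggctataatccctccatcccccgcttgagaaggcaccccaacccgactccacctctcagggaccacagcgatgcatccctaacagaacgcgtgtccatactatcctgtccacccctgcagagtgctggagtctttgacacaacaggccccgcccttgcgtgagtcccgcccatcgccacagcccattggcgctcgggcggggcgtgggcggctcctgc
Neither holds ACGTG on either strand. The full Pfkp window of 250 bases holds the GC box GGGCGG at 4 places, and the Pfkl window holds it at 0.

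The middle of the pathway showed no common direction. Aldoa, the aldolase that splits the 6-carbon sugar, was counted 374 and 387 times in the proliferating libraries against 263 and 564 times in the neuron libraries, or 30.7 and 52.4 CPM against 22.1 and 57.5 CPM. As with Pfkm, neuron replicate 1 was lowest and neuron replicate 2 highest. Its log2 fold change was -0.06 with SE 0.59 (edgeR adjusted p-value 0.9998), 0.43 without neuron replicate 1 and -0.91 without neuron replicate 2. Pgk1, which makes the first ATP of the pathway, was counted 129 and 69 times in the proliferating libraries against 134 and 82 times in the neuron libraries. Its level of 10.6 and 9.34 CPM before against 11.3 and 8.36 CPM after differentiation gave a log2 fold change of -0.02 (SE 0.48, edgeR adjusted p-value 0.9998). The Pgk1 values of the groups interleave.

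Gapdh, the dehydrogenase often used as a loading control, had very few counts: 27 and 16 before against 13 and 9 after differentiation. Its level of 2.22 and 2.17 CPM before against 1.09 and 0.917 CPM after differentiation put it at percentile 14.8 of the mean levels of tested genes. The groups did not overlap, with means of 2.19 ± 0.0372 and 1.01 ± 0.124 CPM (SD, n = 2 each) and a log2 fold change of -1.11 (SE 0.69, edgeR adjusted p-value 0.9998). The SD between replicates is smaller than counting error for counts this low. The counting interval of the neuron level relative to the proliferating level was 0.234 to 0.989 in the replicate 1 pair and 0.165 to 1.02 in the replicate 2 pair.

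The Gapdh transcript is widely copied in the mouse genome, which bears on how its reads can be placed. Of its principal transcript of 1420 bases, 86.6% was matched by stretches of annotated pseudogenes at an identity of at least 95% over at least 100 bases. There were 73 such pseudogenes, and the 69 that are in the count tables held 40 and 23 counts before against 21 and 27 after differentiation, more than Gapdh itself in each library. With these counts added, the level was 5.50 and 5.28 CPM before against 2.86 and 3.67 CPM after differentiation, still without overlap. How reads with several matches were treated is not given in the sources used here, so the level of Gapdh is uncertain and cannot be set against that of other genes. The same search found 4 pseudogenes for Pgk1 (68.8% of its transcript matched), 4 for Ldha (56.6%) and 1 for Pkm (65.5%), and 0 for Hk1, Hk2, Pfkl, Pfkm, Pfkp and Aldoa. Their counts were small beside the gene's own: 0 to 1 for Pgk1, 3 to 18 for Ldha and 42 to 77 for Pkm.

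At the end of the pathway, Pkm makes pyruvate and Ldha turns it into lactate. Pkm had the most counts of the 10 genes, at 912 and 881 before against 983 and 1031 after differentiation. Its level was 74.9 and 119 CPM before against 82.7 and 105 CPM after differentiation, so that both neuron libraries lay between the proliferating ones. The log2 fold change was -0.05 with SE 0.46 (edgeR adjusted p-value 0.9998), 0.34 without proliferating replicate 2 and -0.38 without proliferating replicate 1. Counts per gene cannot tell the M1 from the M2 splice form of Pkm. Ldha was counted 692 and 645 times in the proliferating libraries against 550 and 656 times in the neuron libraries, or 56.9 and 87.3 CPM against 46.3 and 66.9 CPM. It was lower in neurons within both pairs, at -0.30 and -0.38 on the log2 scale, but the groups overlapped because neuron replicate 2 lay above proliferating replicate 1. Its log2 fold change was -0.35 with SE 0.47 (edgeR adjusted p-value 0.9998) and 0.01 without proliferating replicate 2.

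The Ldha window shown is the one with the most ACGTG matches among the 18 windows of these genes, chr7:46845554-46845803 on the plus strand (RefSeq GRCm38.p6). Its start site lies 1327 bases from the principal start of Ldha, and the window nearest to the principal start (start site 46847082) holds 0 ACGTG and 0 CACGTG. The gene lies at chr7:46841475-46855627 (GENCODE M21).
Ldha upstream: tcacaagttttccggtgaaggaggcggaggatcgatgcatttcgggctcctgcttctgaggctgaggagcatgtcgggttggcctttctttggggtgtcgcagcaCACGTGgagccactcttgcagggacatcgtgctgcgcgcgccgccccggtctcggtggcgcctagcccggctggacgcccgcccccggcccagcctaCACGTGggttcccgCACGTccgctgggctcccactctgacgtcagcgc
It holds CACGTG at 2 places, each of which counts as 2 overlapping ACGTG matches on opposite strands, and ACGTG alone at 1 further place. Taking for each of the 10 genes the window nearest to its principal start, ACGTG was found on either strand in 4 (Hk2, Pfkm, Aldoa and Pgk1), against 16.6% of all 32851 windows of this length. CACGTG was found in 0 of these 10 windows, against 6.02% of all windows. The GC box GGGCGG was found in 5, against 32.7%, and TATAAA in 0, against 12.4%. These percentages count every window of a gene, not 1 per gene. Counted in that way, the 18 windows of these 10 genes, some of which overlap, held ACGTG in 8 and CACGTG in 2. They held GGGCGG in 7 and TATAAA in 0. Matches describe the letters only.

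Within the replicate pairs, 4 of the 10 genes (Hk1, Pfkl, Gapdh and Ldha) were lower in neurons in both, against 25.5% of all tested genes. Pfkp was higher in both, against 28.8% of all genes, and the other 5 went opposite ways. The median log2 change was -0.38 for the first pair and -0.28 for the second. The replicates themselves differed in a shared manner: 7 of the 10 genes (Hk1, Hk2, Pfkm, Pfkp, Aldoa, Pkm and Ldha) were higher in replicate 2 than in replicate 1 in both groups, against 31.4% of all tested genes. The other 3 (Pfkl, Gapdh and Pgk1) were lower in replicate 2 in both groups. For Aldoa this replicate difference was 0.77 in proliferating cells and 1.37 in neurons on the log2 scale, against a log2 fold change of -0.06 between the groups. Only for Pfkl and Gapdh did the mean change of the pairs exceed both replicate differences, which held for 15.8% of all tested genes. Replicate 2 libraries also carried the larger share of 18S counts, and the part of this in the pattern was not tested.

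**Figure D3:**
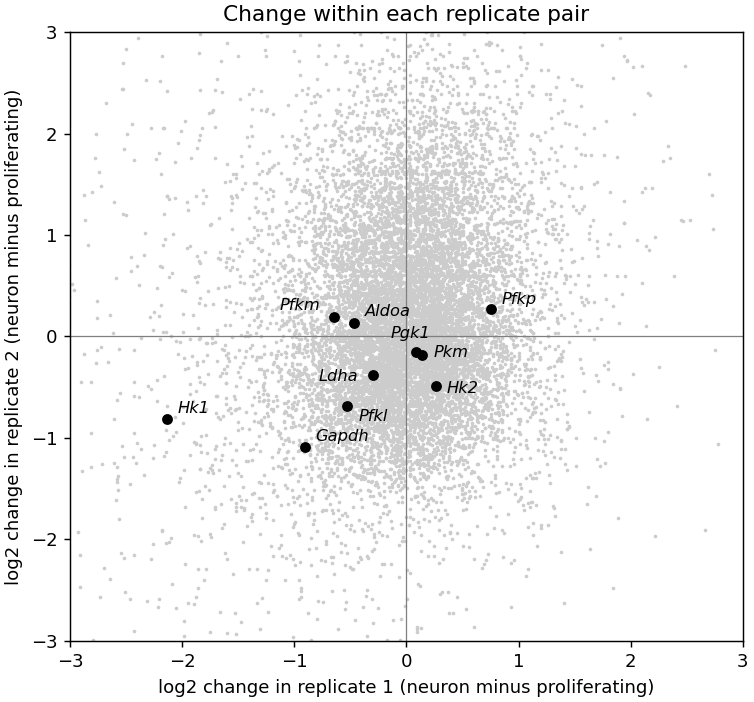
Log2 change from proliferating cells to neurons in the replicate 1 pair (horizontal) and the replicate 2 pair (vertical), with the 10 glycolysis genes in black and all tested genes in grey. Both axes end at 3 in either direction, which leaves out 310 genes. Hk1, Gapdh, Pfkl and Ldha lie at the lower left, Pfkp in the upper right, and the other 5 where the pairs disagree.

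Between genes, levels were compared per kilobase of the longest transcript, as CPM per kilobase averaged over the 4 libraries. Pkm (39.3), Ldha (35.4) and Aldoa (26.3) stood highest, and their values overlapped across libraries. Hk2 (8.09) followed after a gap, since its highest library (11.3) lay under the lowest of Aldoa (14.3). Hk2, Pfkm (5.97), Pgk1 (5.42) and Hk1 (3.04) overlapped with their neighbours in this order, as did Hk1 with Pfkl (2.04). Pfkp (0.893) stood below Pfkl in each library, and Gapdh is left out of this order because of its pseudogenes. Per kilobase of the principal transcript Pfkp moved up, with 1.27 to 2.21 over the libraries against 1.42 to 2.62 for Pfkl, and the values of these genes then overlapped. In every library Pkm, Ldha and Aldoa held the first 3 places under both of these lengths. The authors' RPKM gave another order, with Pgk1 above Pkm in every library (9.49, 3.64, 7.75 and 3.10 against 3.45, 2.39, 2.92 and 2.00 in proliferating 1 and 2 and neuron 1 and 2). Those values imply a length of 1825 bases for Pgk1 and 35533 for Pkm.

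Evc2, Gys1, Abhd2 and Ndufv1 were among the 5 tested genes whose pattern over the 4 libraries lay nearest to the mean pattern of the 10. Their distances were 0.018 to 0.064 (Euclidean, on log2 CPM centred per gene), among the 7286 tested genes averaging 50 counts or more. Over 4 libraries this is a description of likeness only.

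The other glycolysis enzymes of a list of 20 had 12 tested and 0 called in either direction, against 0% of all tested genes. Their median log2 fold change was -0.35, beside 0.02 over all tested genes. Within both pairs 6 of the 12 were lower and 2 higher, against 25.5% and 28.8% of all tested genes, and these counts rest on few genes. Eno1, the main enolase, was counted 395 and 445 times in the proliferating libraries against 372 and 358 times in the neuron libraries, with a log2 fold change of -0.45 and SE 0.49. Pgam1, the phosphoglycerate mutase, had 51 and 31 counts against 26 and 26, with a log2 fold change of -0.79 and SE 0.53. The neuron libraries of Pgam1 lay below the proliferating ones (2.19 and 2.65 CPM against 4.19 and 4.20 CPM). Aldoc, the aldolase typical of brain and astrocytes, varied between libraries, at 201 and 585 counts before against 217 and 76 after differentiation. Its log2 change was 0.14 for the first pair and -3.32 for the second. The glial markers moved likewise in replicate 2, with a sum of 112 CPM before against 18.2 CPM after differentiation. In replicate 1 they did not move alike: the glial sum was 160 CPM before against 68.6 CPM after, and Aldoc 16.5 against 18.3 CPM. The part of glial cells in the Aldoc values was not tested. Ldhb, the lactate dehydrogenase subunit that favours pyruvate, had 86 and 78 counts against 95 and 204, a log2 fold change of 0.71 (SE 0.60).

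Among 22 regulators of glycolysis 16 were tested, with 0 called and a median of -0.13. At an unadjusted edgeR p-value under 0.05, 1 gene was lower and 0 were higher, against 2.51% and 0.915% of all tested genes. That gene was Pfkfb3, which makes the strongest activator of phosphofructokinase. It was counted 156 and 296 times in the proliferating libraries against 71 and 85 times in the neuron libraries, or 12.8 and 40.1 CPM against 5.97 and 8.67 CPM. Both neuron libraries lay below both proliferating ones. The log2 fold change was -1.85 (SE 0.65), with an unadjusted p-value of 0.0232 in edgeR and an adjusted one of 0.9998 (adjusted p-value 0.41 with the replicate block). Myc was counted 14011 and 7018 times in the proliferating libraries against 4762 and 6623 times in the neuron libraries, or 1151 and 950 CPM against 401 and 675 CPM. Its groups did not overlap, and its log2 fold change was -0.97 (SE 0.42, edgeR adjusted p-value 0.9998). Whether Myc counts stem from the cell's own gene or from the immortalizing copy was not tested.

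Glucose and lactate transporters had 6 of 8 genes tested and 0 called, with a median log2 fold change of 0.33, negative in the replicate 1 pair (-0.08) and positive in the replicate 2 pair (0.39). The main glucose importer Slc2a1 differed little, its neuron libraries lying slightly below, at 57 and 37 counts before against 55 and 45 after differentiation and a log2 fold change of -0.07 (SE 0.49). The neuronal glucose transporter Slc2a3 had 25 and 12 counts against 26 and 58, a log2 fold change of 1.12 (SE 0.68). The lactate transporter Slc16a1 had 1037 and 416 counts against 830 and 455, with a log2 fold change of -0.28 and SE 0.48.

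The remaining lists had 0 called genes each. The median log2 fold change was -0.04 over 10 genes of pyruvate entry into mitochondria, -0.29 over 7 genes of the pentose phosphate pathway, and -0.51 over 9 genes of gluconeogenesis and glycogen. It was 0.15 over 10 hypoxia response genes and 0.34 over 5 splicing factors of Pkm. In the glycogen list Pgm1 was counted 72 and 46 times in the proliferating libraries against 13 and 28 times in the neuron libraries. Its log2 fold change was -1.63 (SE 0.62), with an unadjusted p-value of 0.0331 in edgeR and an adjusted one of 0.9998. Of the splicing factors, Ptbp1 had a log2 fold change of -0.59 (SE 0.54) and Ptbp2, its neural relative, one of 0.78 (SE 0.58). Ptbp1 was lower and Ptbp2 higher in neurons within both pairs, but the groups overlapped for each. Hnrnpa1 (0.45, SE 0.48) and Hnrnpa2b1 (0.34, SE 0.52) were also higher within both pairs with overlapping groups, and Srsf3 (0.03, SE 0.45) went opposite ways.

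**Figure D4:**
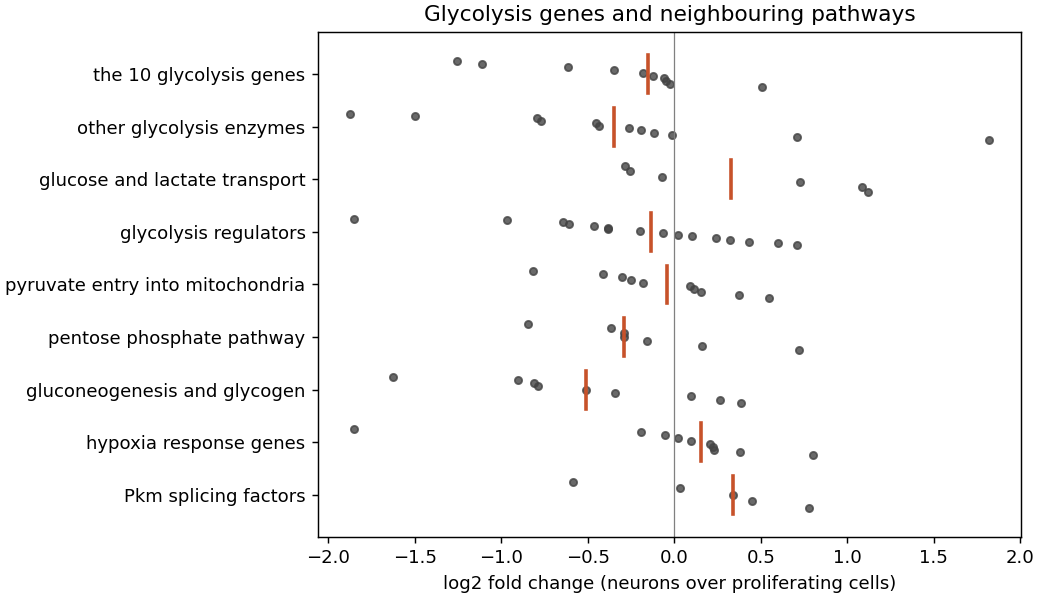
Log2 fold change of neurons over proliferating cells for every tested gene of the 10 glycolysis genes and of 8 neighbouring lists, with 1 point per gene and an orange bar at each list's median. The medians lie between -0.51 and 0.34, and 0 genes shown passed the test across all genes.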

How the data were processed

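For each of the 4 libraries the authors deposited a gene table with a column of raw counts and a column of RPKM. HISAT2, SAMtools, featureCounts, DESeq2, deepTools 3.4.3 and the build mm10 are named in the submitters' processing notes, without roles or settings. Per the labels' protocols, 500 ng of input RNA were depleted of ribosomal RNA, and stranded libraries were sequenced with paired reads of 150 bases. The deposited RPKM values divide the deposited counts by the column total and 1 length per gene. Groups and replicate numbers came from the titles.

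The main test was edgeR 4.0.16 (R 4.3.3) on the counts of all 4 libraries: TMM, filterByExpr (minimum count 10, minimum total 15), then glmQLFit and glmQLFTest with a group term alone, Benjamini-Hochberg adjustment over 12783 genes and calls under 0.05, two-sided. The method was tested on simulated data. Changes within pairs compare log2 CPM values (prior count 2), and isozyme ratios use a prior count of 0.5. The depth of each library limits single values, and Wilson and exact intervals (95%) cover counting error only. Whether replicates are separate cultures is not stated beyond the titles, so p-values measure the spread between these samples. Both replicate 2 titles name set 2, so the numbers were taken as pairs, and deviations of same-numbered libraries correlated at r = 0.33 across genes. Alternatives were RLE factors, library size alone, DESeq2 1.42.0, other filters, limma 3.58.1 on log2(RPKM + 1) and log2(RPKM + 0.1), the 18S row left out, a GC correction (lowess, span 0.3), a block on the replicate number and fits without each library in turn. Lengths and gene positions came from GENCODE M21, pseudogenes from blastn 2.17.0 against its transcripts, and upstream sequences from RefSeq (10 of 10 genes matched). Named genes were the 10 genes, genes of the fixed lists and the 5 genes nearest in pattern, of which 1 is not reported here, while overlapping genes and pseudogenes were chosen afterwards. The 10 genes and all lists were chosen with earlier results of these data known.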

Additional observations from a re-analysis of the deposited data

How the results depend on the processing

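The count of called genes over the whole table was 0 higher and 0 lower in neurons (438 of 12783 at an unadjusted p-value under 0.05, edgeR). Without a gene filter it was 41 higher and 122 lower, with DESeq2 12 and 46, and with the GC correction and the replicate block together 23 and 70. The replicate block called 0 higher and 3 lower, library size alone 2 lower, log2(RPKM + 1) 1 lower and log2(RPKM + 0.1) 2 lower. Leaving out a library gave 3 to 29 higher and 11 to 84 lower, in fits where the lone library of a group is assumed to vary like the other group. None of the 10 glycolysis genes was called under any of these settings, and for the differences in counts the cause was not tested. Library size alone moved the median of all genes from 0.02 to -0.27, and the median of the 10 genes from -0.15 to -0.45. The median of the 10 was -0.55 without neuron replicate 2 and between -0.55 and 0.045 over the libraries left out, and it was 0.0053 with the GC correction.

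Hk1, Pfkl, Gapdh and Ldha stayed negative and Pfkp positive in all 11 settings of scaling, filter, tool, unit, GC content and block, with ranges of -1.70 to -0.42, -0.88 to -0.40, -1.37 to -0.35, -0.59 to -0.23 and 0.05 to 0.55. The sign turned for the other 5 genes, whose values are near 0. With the GC correction Pfkm was 0.031, Aldoa 0.14, Pgk1 0.043 and Pkm 0.21. With the GC correction and the replicate block Hk2 was 0.012, Aldoa 0.051, Pgk1 0.031 and Pkm 0.21. Without a gene filter Pgk1 was 0.013 and Pkm 0.00068. Over the libraries left out, Hk2 ranged from -0.61 to 0.38, Pfkm from -0.84 to 0.32, Aldoa from -0.91 to 0.43, Pgk1 from -0.29 to 0.18, Pkm from -0.38 to 0.34 and Ldha from -0.66 to 0.011. The replicate block changed no call of the 10 genes, whose adjusted p-values in that edgeR fit were 0.58 to 0.9997. The isozyme ratios between groups were the same with the replicate block, since the design is balanced (1.39 for Hk2 to Hk1, 1.14 for Pfkp to Pfkl and 0.39 for Pfkm to Pfkl). The principal transcript length and the added pseudogene counts were chosen after the data were seen.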
